A study of Rattus norvegicus with 10 samples.

Results

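The constitutive proteasome is described here at the level of its mRNAs in rat left ventricle, 3 days after transfer of the GATA-4 gene or of the control gene LacZ. Members were the genes on the array whose symbol begins with Psma, Psmb, Psmc, Psmd, Psme, Psmf or Psmg, leaving out the inducible Psmb8, Psmb9, Psmb10, Psme1 and Psme2. Each was read by the brightest of the probe sets that list that gene alone. The choice of probe set used no difference between the groups, while the members were chosen with earlier results of these data known. The rule gave 41 of the 10688 genes tested. Psmc3ip and Psme3ip1 only share the prefix and are named after a proteasome protein they interact with, so 39 genes of the proteasome remained: 7 of the alpha ring, 6 of the beta ring, 6 ATPases and 11 non-ATPase subunits of the regulatory particle, 1 activator and 1 inhibitor, and 7 assembly factors. All 39 passed the filter on low signal, and they had 52 probe sets of their own, of which 48 passed. The catalytic subunit Psmb6 and the activator subunit Psme3 are listed only on probe sets shared with another gene and were not measured here. Psma8, the testis form of an alpha subunit, and Psmb11, the thymus form of a beta subunit, had no probe set naming them alone.

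The proteasome is the protease that degrades proteins tagged with ubiquitin. Its core is a barrel of alpha rings, which gate the entry, around beta rings, which hold the cutting sites of Psmb5, Psmb6 and Psmb7. A regulatory particle sits on the barrel: its base ATPases unfold the substrate, and its other subunits bind ubiquitin and remove it. Dedicated chaperones build both, and the transcription factor Nfe2l1 (NRF1) is known to raise the subunit genes together when proteasome activity falls. In heart muscle the proteasome turns over sarcomere proteins delivered by muscle ubiquitin ligases. Interferon and inflammation replace the cutting subunits with Psmb8, Psmb9 and Psmb10, which make the immunoproteasome of antigen-presenting cells.

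Both groups were male Sprague-Dawley rats of 250 to 300 g. The labels place 5 arrays in the GATA-4 group and 5 in the LacZ group, where LacZ, a bacterial gene for beta-galactosidase, serves as the control. All had undergone gene transfer, and no untreated heart was among the samples. The sources used here do not give the vector, its promoter, the route of delivery or the rats' age. Array numbers 1 to 5 only name the arrays within a group. The design text speaks of animals but no label names one, so p-values measure the spread between these samples. RNA came from whole tissue, in which fewer cells of a type and less RNA per cell cannot be told apart.

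As a check of the labels, Gata4 itself was 0.79 higher on the log2 scale in the GATA-4 group (SE 0.09, limma adjusted p = 0.00131), with no overlap between the groups. Trimmed mean signals were 250.2 to 315 on the LacZ arrays and 250.5 to 330 on GATA-4 arrays 2 to 5, and 143 on GATA-4 array 1, which also correlated least with the rest (r at most 0.945 over probe sets). The sample numbers of GATA-4 arrays 4 and 5 are not in the run of the other 8, and no batch is labelled. All values below are log2 intensities after quantile normalization, and a difference is GATA-4 minus LacZ. All 8 cardiomyocyte markers were bright, with LacZ means of 12.57 to 13.65, and none changed. Of the 10 macrophage and monocyte markers tested, 6 rose, and their summed intensity was 13722 to 18833 on the GATA-4 arrays against 8828 to 11663 on the LacZ arrays. Of 4 neutrophil markers tested 2 rose (295 to 2459 against 252 to 1002, summed over these and 2 under the signal filter), and of 4 genes of dividing cells 3 rose (867 to 1301 against 643 to 739). None of the fibroblast (7), endothelial (5), smooth muscle (4) or T and NK cell markers (5) tested passed. All 5 T and NK cell markers were above 0 (median difference 0.61), as were all 4 of smooth muscle (0.24). The fibroblast and endothelial medians were 0.044 and -0.071. The part of any of these cell types in the results below was not tested. The 3' to 5' ratio of the array's control genes differed by -0.0017 (exact permutation p = 0.984), and their 3' to middle ratio by -0.19 (exact permutation p = 0.0476).

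Of the 39 constitutive proteasome genes, 1 rose and none fell. The riser was Psme4, the activator also known as PA200. Among all 10688 genes tested by limma, 3.71% rose and 2.66% fell, 6.37% in all (5.30% of probe sets), and 2.56% of the members rose. An unadjusted p under 0.05 was reached by 3 members (Psme4, Psmc5 and Psma5), 7.69% against 24.2% of all genes. The differences were small: their median size was 0.087, against 0.173 over all genes and 0.157 over the 5383 genes at least as bright as the dimmest member. Only Psme4 moved by more than 1.25-fold, 2.56% of the members, where 22.4% of all genes and 17.0% of those 5383 did. For 38 of the 39, all but Psmd3, the 95% interval of the difference lay within 1.5-fold either way (97.4%, against 65.7% of all genes and 79.5% of the 5383), and for 22 it lay within 1.25-fold (56.4%, against 17.2% and 27.0%). Smaller shifts lie within these intervals. The 5383 genes share only a lower limit of brightness with the members and were not matched to them in level. The median SE was 0.085 for the members, 0.113 for the 5383 and 0.138 over all genes. The part of brightness in these shares was not tested. With 1 array left out, the members' count stayed at 0 or 1 rising and 0 falling, while the count over all probe sets, 988, ran from 174 without LacZ array 3 to 2849 without GATA-4 array 1.

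**Figure D1:**
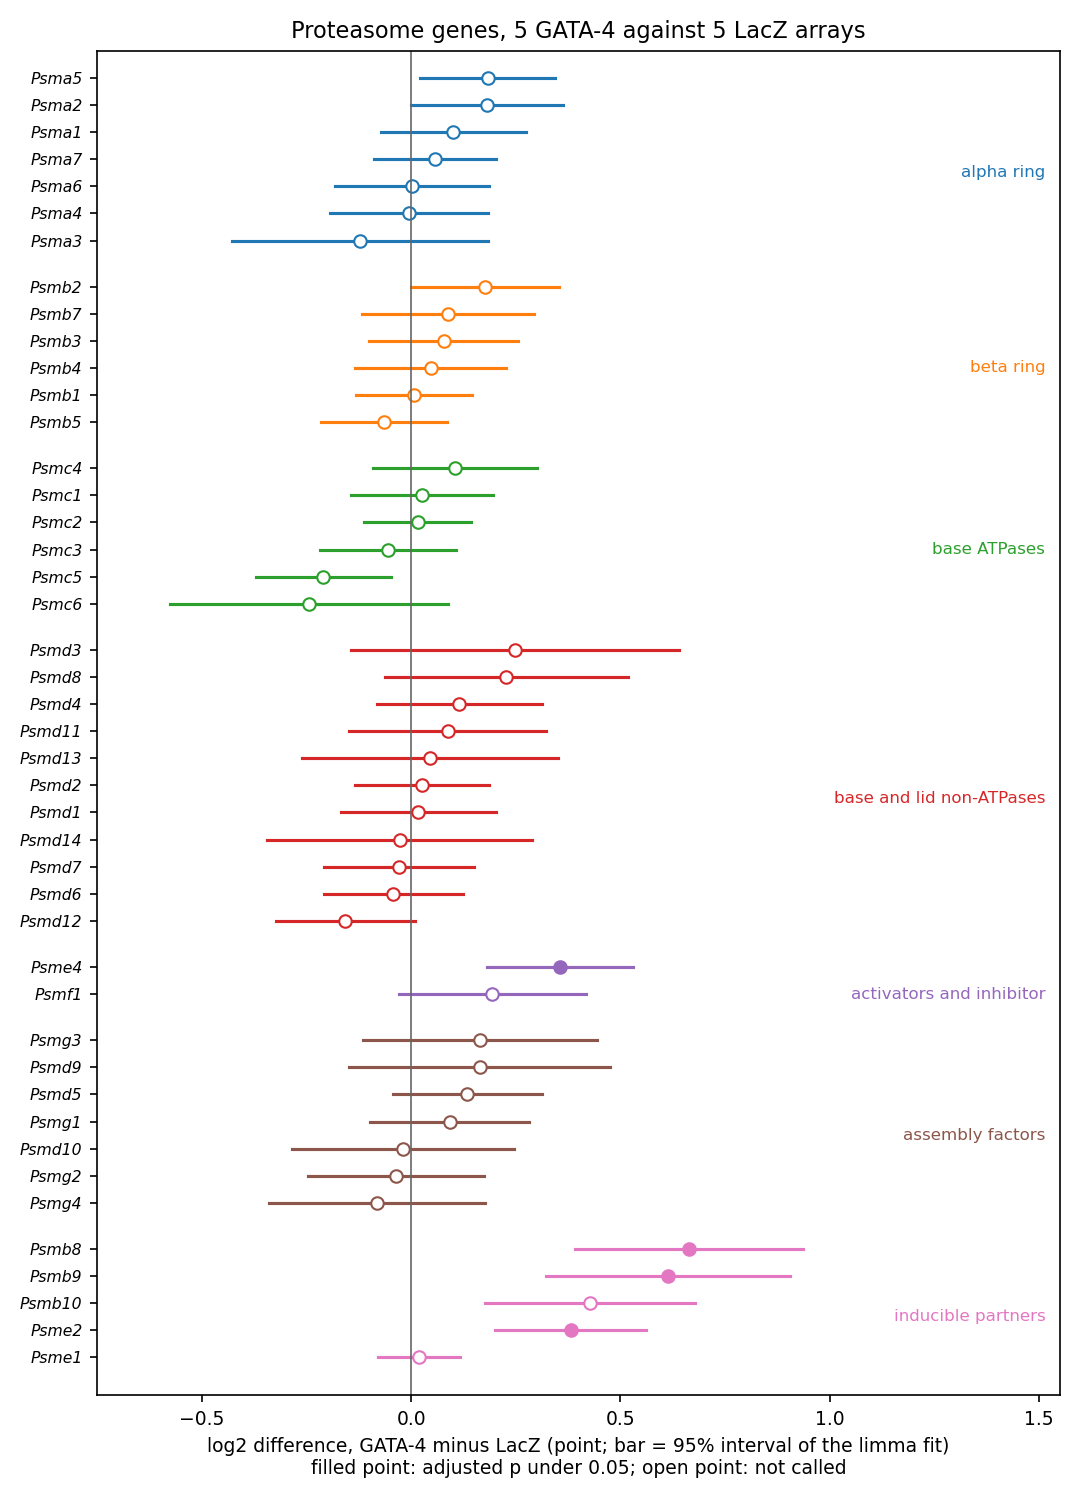
The log2 difference, GATA-4 minus LacZ, of each of the 39 constitutive proteasome genes and the 5 inducible ones (x axis, with 95% limma intervals as bars), grouped by place in the complex; filled points passed the adjusted threshold. Constitutive genes run from -0.24 for Psmc6 to 0.36 for Psme4, and most intervals cross 0, while Psmb8 at 0.66 and Psmb9 at 0.61 lie to the right.

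Which way the constitutive genes leaned as a whole was set by the scaling. After quantile normalization 26 of the 39 differences were above 0, with a median of 0.045 against -0.017 over all genes. With the values as deposited, or centred on each array's median, 13 were above 0 and the medians were -0.058 and -0.061. The medians over all genes in these settings were close to those, at -0.054 and -0.056. No direction is therefore given for the complex. The same change of scaling moved the split of all calls, from 58.3% higher after quantile normalization to 45.3% higher after median centring.

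Psme4 encodes a single large protein that caps the core in place of the regulatory particle and is known for opening the barrel to acetylated histones and small peptides. Its brightest probe set read 10.69, 10.82, 10.77, 10.81 and 10.74 on LacZ arrays 1 to 5 and 11.26, 10.97, 11.25, 11.18 and 10.94 on GATA-4 arrays 1 to 5. Every GATA-4 array was above every LacZ array. The difference was 0.36 (SE 0.08, 95% interval 0.18 to 0.53), or 1.28-fold, with a limma adjusted p of 0.0265 and an exact permutation p of 0.00794, the smallest that 5 against 5 arrays can give. It was above 0 in all 22 alternative settings, from 0.22 to 0.40. The adjusted p was above 0.05 in 11 of them, among these the values as deposited (0.993), median centring (0.147), limma without the intensity trend (0.0679) and the fits without LacZ array 1, 3, 4 or 5 or GATA-4 array 3 or 4 (up to 0.0812). Without the dim GATA-4 array 1 the difference was 0.32 (limma adjusted p = 0.0122), and without GATA-4 arrays 4 and 5 it was 0.40 (limma adjusted p = 0.0618).

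The other Psme4 probe sets did not give the same value. The second in brightness read 10.28, 10.36, 10.27, 10.35 and 10.24 on the LacZ arrays and 10.25, 10.40, 10.38, 10.50 and 10.36 on the GATA-4 arrays. Its groups overlapped, and the difference was 0.079 (limma adjusted p = 0.566) and -0.0018 under median centring. The third read 9.39, 10.12, 9.69, 9.69 and 9.50 against 10.19, 10.04, 10.28, 10.57 and 10.06. Here LacZ array 2 lay among the GATA-4 arrays and the others lay below them, and the difference of 0.55 passed the threshold (limma adjusted p = 0.0414). Its adjusted p was above 0.05 with the values as deposited (0.993), under median centring (0.0593), with no filter (0.0612), without the trend (0.0729), without LacZ array 1, 3, 4 or 5 or GATA-4 array 3, 4 or 5 (up to 0.104), and without GATA-4 arrays 4 and 5 together (0.124). As a description with no test, the brightest minus the second probe set differed by 0.28 between the groups, the second minus the third by -0.47, and the brightest minus the third by -0.20. Which transcripts each probe set reads was not examined. Over the members as a whole, 6 had more than 1 probe set that passed the filter; of the 9 further probe sets 1 rose (the third of Psme4), none fell, and 4 lay on the other side of 0 from the brighter one.

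**Figure D2:**
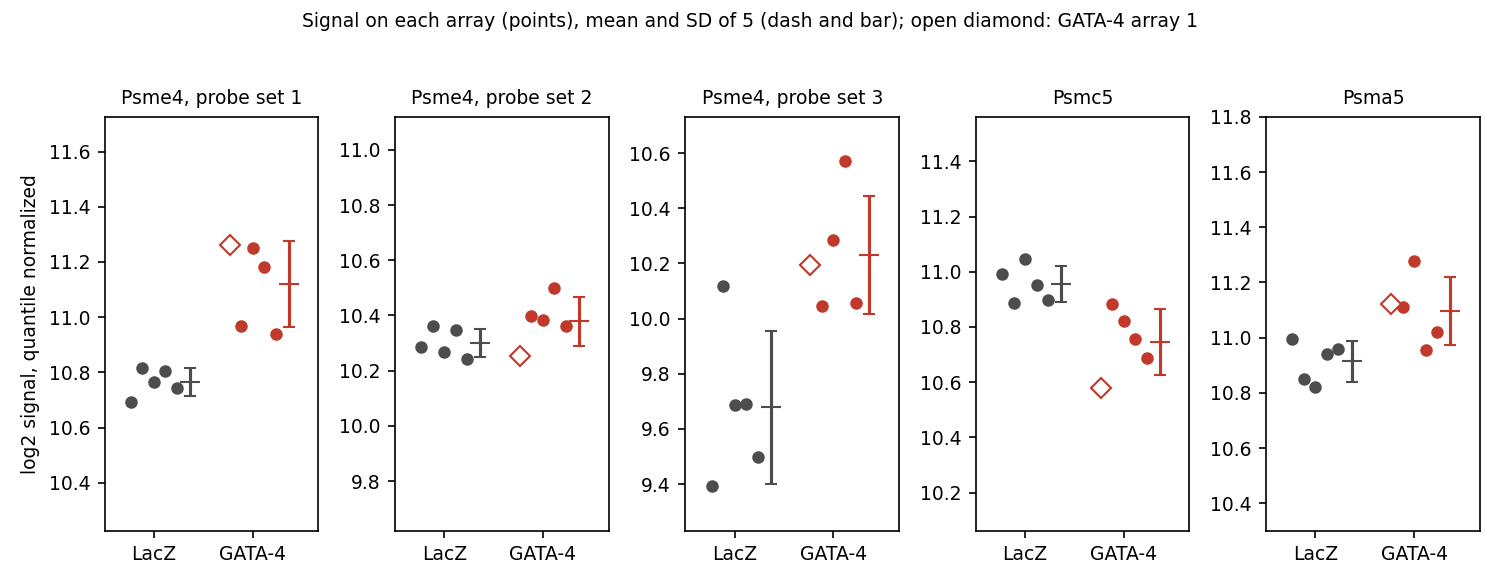
Log2 intensity (y axis) on each array for the 3 Psme4 probe sets, Psmc5 and Psma5, with the mean and SD of 5 arrays beside each group and GATA-4 array 1 as an open diamond. The brightest Psme4 probe set separates the groups upward, the second does not, the third does except for LacZ array 2, Psmc5 separates them downward by a narrow gap, and Psma5 groups touch.

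Promoter sequence is shown for 3 of the 6 members with a match to the antioxidant response element, the element through which Nfe2l1 and Nfe2l2 act on proteasome genes: Psme4 because it rose, Psmb5 as a cutting subunit and Psmb2 as the beta gene with the highest difference. RefSeq promoters of build GRCr8 were found for 35 of the 39 members, and the 250 bases before the start site were searched on both strands. Psme4 lies at chr14:108706393-108706642 on the plus strand, Psmb5 at chr15:32047380-32047629 on the minus strand and Psmb2 at chr5:144254808-144255057 on the plus strand. Capitals mark the antioxidant response element TGACNNNGC, which lies on the opposite strand in Psme4.
Psme4: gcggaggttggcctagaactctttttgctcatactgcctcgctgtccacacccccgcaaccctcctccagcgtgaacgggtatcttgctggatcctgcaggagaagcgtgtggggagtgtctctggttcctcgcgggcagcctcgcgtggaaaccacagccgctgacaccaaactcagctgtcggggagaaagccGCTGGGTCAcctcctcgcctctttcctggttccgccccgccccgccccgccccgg
Psmb5: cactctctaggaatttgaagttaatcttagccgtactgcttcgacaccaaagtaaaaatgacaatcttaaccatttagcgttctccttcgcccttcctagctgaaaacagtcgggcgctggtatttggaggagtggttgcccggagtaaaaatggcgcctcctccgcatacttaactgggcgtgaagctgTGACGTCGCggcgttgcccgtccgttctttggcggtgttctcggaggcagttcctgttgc
Psmb2: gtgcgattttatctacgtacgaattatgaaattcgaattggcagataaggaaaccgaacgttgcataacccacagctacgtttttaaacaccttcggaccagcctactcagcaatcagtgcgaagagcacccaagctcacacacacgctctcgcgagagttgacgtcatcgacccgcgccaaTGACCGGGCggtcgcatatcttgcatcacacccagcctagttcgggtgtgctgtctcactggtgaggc

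The marked match begins 55 bases before the start in Psme4, 60 in Psmb5 and 68 in Psmb2. The antioxidant response element was found in 6 of 35 member promoters (17.1%; 10.1% of all 33469 promoters): Psma3, Psmb2, Psmb5, Psmd1, Psmd9 and Psme4. The differences of these 6 genes ran from -0.12 for Psma3 to 0.36 for Psme4. A GATA motif (AGATAA or AGATAG, or else TGATAA or TGATAG) was in 9 member promoters (25.7%; 27.0% of all), whose differences ran from -0.08 to 0.25, and Psme4 was not one of them. The CCAAT box (CCAAT) was in 18 (51.4%; 34.0% of all). The interferon-stimulated response element (GAAA, any 2 bases, and GAAA again) was in 3 (8.57%, against 3.41% of all), and of the 5 inducible genes Psmb10 and Psme2 held it. The gamma-activated site (TTCNNNGAA) was also in 3 (8.57%, against 7.67% of all), and of the 5 inducible genes Psmb8 held it. In members, 1 antioxidant response element match overlapped 1 CCAAT match. A match is a string of letters in this window, not a binding site.

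The alpha ring forms the gate of the barrel. None of its 7 genes passed the threshold, and their differences ran from -0.12 for Psma3 to 0.18 for Psma5. Psma5 read 11.00, 10.85, 10.82, 10.94 and 10.96 on the LacZ arrays and 11.12, 11.11, 11.28, 10.95 and 11.02 on the GATA-4 arrays. The groups touched, GATA-4 array 4 lying within the LacZ range, and the difference of 0.18 (SE 0.07) had a limma adjusted p of 0.170. Psma2 had the same difference of 0.18 (SE 0.08, limma adjusted p = 0.228). Psma3 was low on GATA-4 array 1, at 8.71 where the rest of its group had 9.21 to 9.44, and its difference was 0.0034 without that array. The brightest alpha gene, Psma6, averaged 11.99 ± 0.19 (SD, n = 5) in the GATA-4 and 11.98 ± 0.09 (SD, n = 5) in the LacZ group. Psma1, Psma4 and Psma7 differed by 0.10, -0.0049 and 0.057, and the groups of each overlapped.

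The beta ring holds the cutting sites. Psmb5, which carries the chymotrypsin-like site that bortezomib blocks, read 11.68, 11.48, 11.55, 11.58 and 11.67 on the LacZ arrays and 11.59, 11.49, 11.69, 11.40 and 11.47 on the GATA-4 arrays. The groups overlapped, with GATA-4 arrays 4 and 5 below the LacZ range and array 3 above it. The difference was -0.064 (SE 0.07, limma adjusted p = 0.630), with a 95% interval of 0.861 to 1.06-fold. Psmb7, which carries the trypsin-like site, read 11.14, 11.06, 11.15, 11.15 and 11.16 against 11.53, 11.13, 11.35, 10.98 and 11.11. GATA-4 arrays 1 and 3 were above the LacZ range and array 4 was below it, and the difference was 0.089 (SE 0.10, 95% interval -0.12 to 0.29), changing sign to -0.026 under median centring and falling to 0.0096 without GATA-4 array 1. Of the structural beta genes, Psmb2 was highest at 0.18 (SE 0.08, limma adjusted p = 0.228; 0.11 without GATA-4 array 3), and Psmb1, the brightest at 11.81 ± 0.05 (SD, n = 5) in the LacZ group, differed by 0.0064. Psmb3 and Psmb4 differed by 0.078 and 0.047.

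The base ATPases form the ring that unfolds substrates and threads them into the barrel. None of the 6 passed the threshold, and their median difference was -0.020. Psmc5 read 10.99, 10.89, 11.05, 10.95 and 10.90 on the LacZ arrays and 10.58, 10.88, 10.82, 10.76 and 10.69 on the GATA-4 arrays. The groups did not overlap, although GATA-4 array 2 (10.88) and LacZ array 2 (10.89) nearly met. The difference was -0.21 (SE 0.07) and missed the threshold over all probe sets (limma adjusted p = 0.120). It passed with array weights (-0.20, limma adjusted p = 0.0415). The exact permutation p of 0.00794 follows from the lack of overlap alone, and Psmc5 was named after its values were seen. Psme4 and Psmc5 were the only members whose groups did not overlap, 5.13% of members against 9.66% of all genes (4.56% with GATA-4 higher and 5.10% with it lower). Psmc6 had the lowest difference of all members, -0.24 (SE 0.15, limma adjusted p = 0.380), and GATA-4 array 1 read 9.35 there, below the 9.97 to 10.34 of its group. Without that array Psmc6 differed by -0.081 and Psmc5, at -0.17, was lower. Psmc4 was the highest ATPase at 0.10 (0.042 without GATA-4 array 1), and the brightest, Psmc2, stayed within 12.23 to 12.25 under LacZ and spread over 12.14 to 12.43 under GATA-4. Psmc1 and Psmc3 differed by 0.026 and -0.056.

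The non-ATPase subunits of base and lid bind ubiquitin and, through the deubiquitinase Psmd14, remove it. None of the 11 passed the threshold, with a median difference of 0.025. Psmd3, a lid scaffold subunit, was highest at 0.25 (SE 0.18, limma adjusted p = 0.454). It read 8.91, 9.16, 9.05, 9.37 and 8.75 on the LacZ arrays and 9.98, 8.98, 9.22, 9.01 and 9.29 on the GATA-4 arrays, where array 1 stood alone. Without that array the difference was 0.076. Psmd8, another lid subunit, differed by 0.23 (limma adjusted p = 0.346) and by 0.12 without that array. Psmd12 had the lowest difference, -0.16 (SE 0.08, limma adjusted p = 0.254), with LacZ arrays at 10.74 to 10.89 and GATA-4 arrays at 10.49 to 10.84. The brightest, Psmd2, which docks ubiquitin shuttles on the base, differed by 0.025, and Psmd14 differed by -0.028. The ubiquitin receptor Psmd4 differed by 0.12 (95% interval -0.08 to 0.31), the base scaffold Psmd1 by 0.017 and Psmd7, the partner of Psmd14, by -0.030. The lid subunits Psmd6, Psmd11 and Psmd13 differed by -0.042, 0.087 and 0.045.

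Psmf1 encodes PI31, described as an inhibitor of the isolated core. It read 9.07, 9.16, 9.12, 9.06 and 8.78 on the LacZ arrays and 9.16, 9.31, 9.43, 9.16 and 9.12 on the GATA-4 arrays. The groups overlapped, and the difference of 0.19 (SE 0.10) had a limma adjusted p of 0.291.

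Of the assembly factors, Psmg1 to Psmg4 chaperone the core and Psmd5, Psmd9 and Psmd10 the base. None of the 7 passed the threshold, and their median difference was 0.092. Psmg3 was highest at 0.16 (SE 0.13, limma adjusted p = 0.491; 0.089 without GATA-4 array 1 and 0.27 without array 4) and Psmg4 lowest at -0.08 (SE 0.12, limma adjusted p = 0.733). Psmg1, the brightest, differed by 0.092, and Psmg2, with which it pairs, by -0.036. Psmd9 and Psmd10 (gankyrin) differed by 0.16 and -0.019. Psmd5, which holds a base intermediate until the ring closes, read 9.19 to 9.33 on the LacZ arrays and 9.32 to 9.51 on the GATA-4 arrays, and its difference of 0.13 had a limma adjusted p of 0.367. Of the prefix-only genes, Psmc3ip differed by -0.17 (limma adjusted p = 0.545) and Psme3ip1 by -0.11 (limma adjusted p = 0.549).

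Arrays of 1 group also differed from each other across the members. Averaged over all 39 as deviations from each gene's mean, GATA-4 arrays spanned -0.099 (array 4) to 0.13 (array 3), and LacZ arrays -0.063 to 0.019, inside that range. GATA-4 array 3 was the highest of its group for 20 members and array 4 the lowest for 18. The dim array 1 was lowest for 14 and highest for 14. The SD was larger in the GATA-4 group for 34 of 39 members (87.2%, against 78.4% of all genes), with a median SD of 0.156 against 0.083 in the LacZ group. With GATA-4 arrays 2 to 5 alone it was larger for 28 (71.8%, against 59.7% of all genes), with a median SD of 0.133 against 0.171 over all genes.

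**Figure D3:**
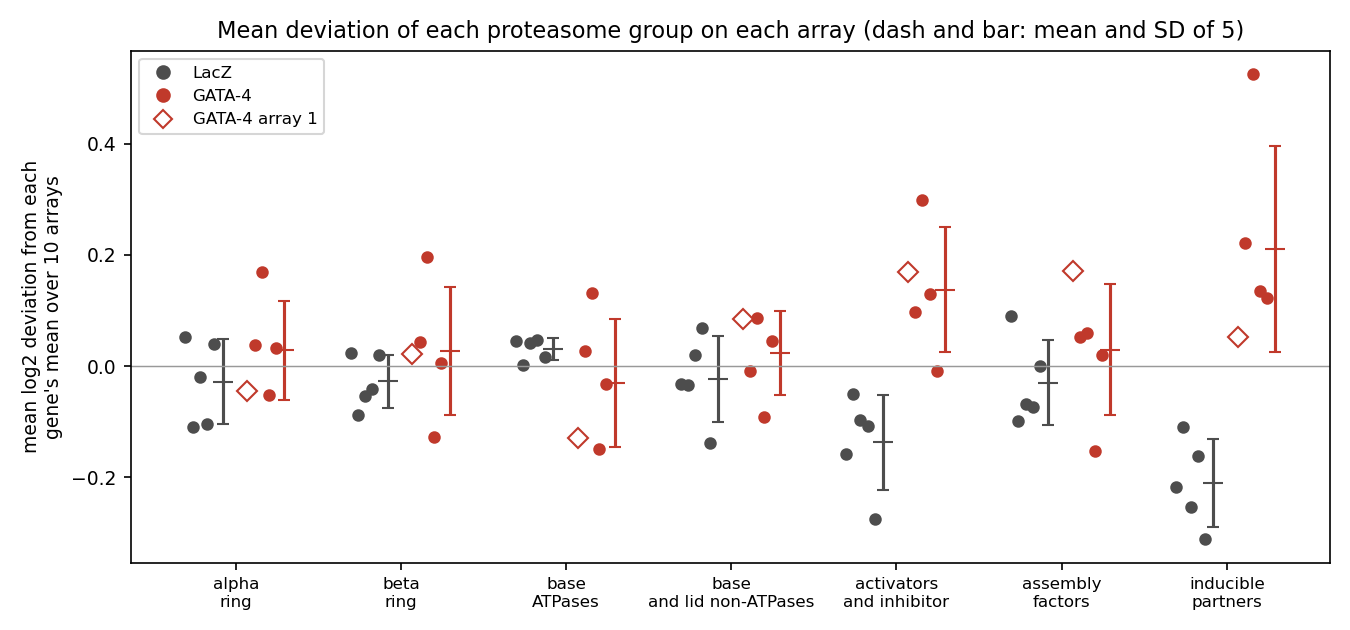
Mean log2 deviation from each gene's average (y axis) on the 10 arrays for each structural class and the inducible genes; points are arrays, the dash and bar are the mean and SD of 5, and the open diamond is GATA-4 array 1. The core classes overlap between groups, with GATA-4 array 3 high and array 4 low. The activators and inhibitor class holds only Psme4, which rose, and Psmf1. It does not overlap, at -0.0082 to 0.30 under GATA-4 and -0.27 to -0.050 under LacZ. The inducible genes span 0.05 to 0.53 under GATA-4 and -0.31 to -0.11 under LacZ.

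The inducible genes were read on the same arrays. Psmb8, Psmb9 and Psme2 rose (limma adjusted p = 0.0148, 0.0248 and 0.0248), Psmb10 was at 0.43 (limma adjusted p = 0.0506) and Psme1 at 0.019 (limma adjusted p = 0.845). These calls were near the threshold. Psmb8 lost its call with the values as deposited, without GATA-4 arrays 4 and 5 and without LacZ array 3 (limma adjusted p = 0.0570 in the last). Psmb9 and Psme2 lost theirs with the values as deposited, under median centring (limma adjusted p = 0.0611 and 0.174), without the trend and without GATA-4 arrays 4 and 5. With 1 array left out, Psmb9 also lost it without LacZ array 1, 3, 4 or 5 or GATA-4 array 3 (up to 0.0774), and Psme2 without LacZ array 3, 4 or 5 (up to 0.0817). Psmb10 gained a call under robust limma, array weights, the filter at the 60th percentile, the mean of a gene's probe sets, and without GATA-4 array 1 (0.0186) or 4 (0.0468). Psmb8 takes the place of Psmb5, and the log2 signal of Psmb8 minus that of Psmb5 on the same array spanned -2.08 to -1.63 under LacZ and -1.52 to -0.90 under GATA-4. The groups did not overlap, and the ratio differed by 0.73, or 1.66-fold. Psmb10 takes the place of Psmb7, and that ratio spanned -2.63 to -2.44 under LacZ and -2.58 to -1.94 under GATA-4, with GATA-4 array 1 within the LacZ range. It differed by 0.34, or 1.26-fold. These ratios were chosen after the values of Psmb8 and Psmb10 were seen and are given as a description with no test. Some markers of macrophages, neutrophils and dividing cells rose as well, as given above, and a link with these genes was not tested. The pair of Psmb9 and Psmb6 could not be formed. A ratio of probe set signals has no meaning as a ratio of molecules; only its difference between groups is read.

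**Figure D4:**
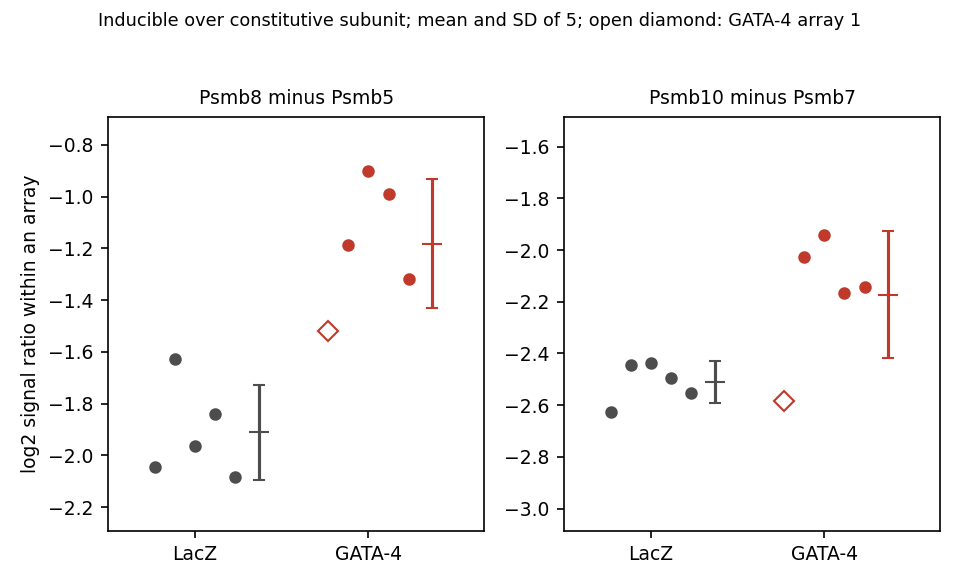
Log2 signal of the inducible subunit minus that of its constitutive counterpart on each array (y axis), for Psmb8 over Psmb5 and Psmb10 over Psmb7, in both groups, with the mean and SD of 5 arrays and GATA-4 array 1 as an open diamond. Every GATA-4 array lies above every LacZ array for the first pair, and all but GATA-4 array 1 for the second.

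Genes that work with the proteasome were read from lists set by their known roles, with earlier results of these data known. Over all genes, 6.37% rose or fell. Of 16 partners and regulators tested by limma none rose or fell, with a median difference of -0.017. An unadjusted p under 0.05 was reached by 3 of them, where 24.2% of all genes reached it. The core maturation factor Pomp differed by 0.021, and Nfe2l1 and Nfe2l2 by -0.20 and 0.17 (limma adjusted p = 0.496 and 0.355). The smallest p belonged to Ecpas, a proteasome adaptor and scaffold, at -0.17 (limma adjusted p = 0.186). Its groups did not overlap, with GATA-4 lower, as was the case for 5.10% of all genes. Of 11 ubiquitin, shuttle and segregase genes tested by limma none rose or fell, and the median difference was 0.12. An unadjusted p under 0.05 was reached by 3 of the 11, against 24.2% of all genes. The ubiquitin receptor Sqstm1 (p62) came nearest the threshold at 0.27 (limma adjusted p = 0.114). The medians of both lists were read after quantile normalization only.

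Of 12 ubiquitin ligases of heart muscle tested, 1 fell and none rose, where 2.66% of all genes fell and 3.71% rose. An unadjusted p under 0.05 in limma was reached by 3 of the 12, against 24.2% of all genes. The ligase that fell was Trim63, which encodes MuRF1, the ligase that marks sarcomere proteins for the proteasome. It read 10.09, 9.99, 10.18, 10.06 and 9.97 on the LacZ arrays and 9.40, 9.81, 9.17, 9.56 and 9.63 on the GATA-4 arrays. Every GATA-4 array was below every LacZ array, as was the case for 5.10% of all genes. That separation alone gives the exact permutation p of 0.00794. The Trim63 difference was -0.54 (SE 0.11, limma adjusted p = 0.0213), which is 1.46-fold lower. It was below 0 in all 22 alternatives, and the limma adjusted p was above 0.05 in 5: the values as deposited (0.993), without LacZ array 1 (0.0528), 3 (0.0743) or 4 (0.0513), and without GATA-4 arrays 4 and 5 (0.0642). Fbxo32 (atrogin-1), the other well-known ligase of muscle wasting, was under the signal filter, at 5.08 against 4.79, and was not tested.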

How the data were processed

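The authors deposited linear intensities, 1 value per probe set and array, produced by GCOS, Affymetrix's software, per the submitters' processing notes; the sources used here do not give the summary algorithm or any scaling. GEO's platform annotation named the genes, and symbols were updated from RefSeq. After log2, arrays were quantile normalized with control probe sets left out, and values were floored at 0. Probe sets with a mean above the 40th percentile (18625) were fitted with limma 3.58.1 in R 4.3.3 (eBayes with an intensity trend, no covariates), with two-sided p-values and Benjamini-Hochberg adjustment over all of them. Rose and fell mean an adjusted p under 0.05. Single values were compared by exact permutation, two-sided, with 252 assignments. The brightest probe set that passed stood for a gene. On simulated data with known changes the fit was tested first.

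Members and lists were chosen with earlier results of these data known. By rule the text names Gata4, members past the threshold, the highest, lowest and brightest member of each class, the catalytic subunits with their inducible partners, and in each related list those that passed or the one with the smallest p. Psmc5, Psma2, Psmd8, Psmd5 and the within-array ratios were chosen after their values were seen, as were Pomp, Nfe2l1, Nfe2l2, Fbxo32 and the prefix-only genes named for completeness. Alternatives were the values as deposited, median centring, an added constant of 16, another floor, other filters, robust limma, no trend, array weights (statmod 1.5.0), the mean of a gene's probe sets and leaving out arrays. The number of arrays limits the precision.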

Additional observations from a re-analysis of the deposited data

Results flagged for a closer look

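Among 70 groups of 5 arrays checked, 4 held an array far from the rest. By chance about 1 in 20 groups would, so this count was near the chance rate. Psma6 was lowest on GATA-4 array 1, at 11.66, with the nearest array at 12.03. Psmb7 was lowest on LacZ array 2, at 11.06, with the nearest at 11.14. Psmf1 was lowest on LacZ array 5, at 8.78, with the nearest at 9.06. Psme2 was highest on GATA-4 array 3, at 11.54, with the nearest at 11.23.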

How the results depend on the processing

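In all, 988 probe sets changed; the number was 9 with the values as deposited, 619 with no filter, 539 without the limma trend, 2890 with array weights, 201 without GATA-4 arrays 4 and 5, 2616 after centring on medians with GATA-4 array 1 left out, and 174 to 2849 when 1 array was left out. Median centring without GATA-4 array 1, and the alternatives for the ratios, were chosen after seeing the data. The count of members that rose was 0 with the values as deposited, with either median centring, without the trend and without GATA-4 arrays 4 and 5, and 0 to 1 when 1 array was left out; 1 member fell with array weights. The members' median was -0.058 as deposited, -0.061 with median centring and -0.032 with centring and GATA-4 array 1 left out. Over all genes it was -0.054, -0.056 and -0.039. Differences near 0 changed sign. In the order of those 3 settings they were -0.023, -0.026 and -0.10 for Psmb7, -0.065, -0.067 and -0.14 for Psme1, -0.13, -0.13 and -0.062 for Psma6, -0.11, -0.11 and -0.080 for Psmb1, -0.11, -0.11 and -0.12 for Psmc2, and -0.099, -0.10 and -0.080 for Psmd2, and Psmc4 was -0.032 in the third. Without GATA-4 arrays 4 and 5, Psma6 was -0.039 and Psmd2 -0.043. Leaving out 1 array gave -0.18 to 0.0034 for Psma3, -0.036 to 0.081 for Psma6, -0.016 to 0.043 for Psmb1, -0.030 to 0.044 for Psmc2, -0.011 to 0.058 for Psmd2, -0.0096 to 0.045 for Psme1 and -0.18 to 0.00068 for Psmg4. The ratio of Psmb10 to Psmb7 was 0.33 without GATA-4 arrays 4 and 5 and 0.28 to 0.44 with 1 array left out. The causes were not tested. No paired analysis was possible because the labels give no number shared between the groups; numbers 1 to 5 only name arrays.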

Other observations

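Adrm1, a ubiquitin receptor of the regulatory particle, read 9.60 on GATA-4 array 1 where the rest of its group had 8.29 to 8.53. Ngly1, the glycanase that processes NRF1, read 8.12 on GATA-4 array 1 where the rest of its group had 9.68 to 9.92. Neither passed the limma threshold (adjusted p = 0.574 and 0.498). Stub1, the chaperone-linked ligase CHIP, was lower on every GATA-4 array than on any LacZ array, at 9.99 to 10.55 against 10.57 to 10.76. Groups separated in this direction for 5.10% of all genes. The Stub1 difference of -0.31 missed the threshold (limma adjusted p = 0.103). All 3 were named after their values were seen.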
